A study of Mus musculus with 6 samples.

Results

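V(D)J recombination genes and the non-homologous end-joining genes that finish it were followed through 6 RNA-seq libraries of BCR-ABL-transformed mouse pro-B cells that differed in Ikaros. The 10 genes were taken by symbol, 10 of the 22098 symbols of the RPKM table, with 13 of its 26531 transcript rows: Rag1, Rag2, Dntt, Prkdc, Xrcc4, Xrcc5, Xrcc6, Lig4, Dclre1c and Nhej1. RPKM is reads scaled to transcript length and library size, so levels of different genes can be set side by side. The cells were Ikaros ZnF4-/- mutants, Ikaros ZnF1-/- mutants and wild type (wt), each with 1 library at day 28 and 1 at day 21 of in vitro culture. In every group, wild type included, whole bone marrow of C57BL/6 background had been transduced at day 0 with the retrovirus BCR-ABL-p185-IRES-YFP, and the cells were labelled as transformed pro-B acute lymphoblastic leukaemia cells. Each genotype therefore had n = 2, and the labels do not say whether the 2 days came from separate cultures or animals. Day is a term in the fit, so the p-values rest on how unevenly the genotypes changed between the 2 days. A difference between cultures cannot be told apart from one between genotypes.

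In developing B cells, the Rag1 and Rag2 proteins together form the recombinase that cuts DNA beside immunoglobulin gene segments. The cut ends are held by the Ku proteins (Xrcc6, or Ku70, and Xrcc5, or Ku80) and the DNA-dependent protein kinase (Prkdc). Artemis (Dclre1c) opens the hairpins, terminal transferase (Dntt) adds bases with no template, and ligase 4 (Lig4) seals the ends with Xrcc4 and XLF (Nhej1). Rag1, Rag2 and Dntt belong to lymphoid progenitors, whereas the end-joining factors are expressed in most cells. Ikaros (Ikzf1) is a DNA-binding zinc finger factor of the lymphoid lineage that recognises a GGGAA core.

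The pro-B label was checked first. All 10 pro-B markers stood at 1 RPKM or more in every library, and their summed level ranged over 2804.8 to 3122.4 RPKM in ZnF4 cells, 2800.8 to 2810.1 in ZnF1 cells and 2694.5 to 2926.9 in wild type cells. Macrophage markers were also present, at a summed 202.8 to 262.0 RPKM in ZnF4 cells, 1904.9 to 2002.8 in ZnF1 cells and 324.4 to 512.5 in wild type cells. All 10 were at 1 RPKM or more in every library. Stromal markers summed to 17.4 to 18.0 RPKM in ZnF4, 155.7 to 164.2 in ZnF1 and 24.7 to 36.8 in wild type. Of the T cell and thymocyte markers, which matter because thymocytes also use Rag1, Rag2 and Dntt, 4 of 9 (Cd3e, Cd3g, Cd8a and Ptcra) were listed at 0 in all 6 libraries. The list summed to 17.8 to 18.5 RPKM in ZnF4, 20.8 to 39.4 in ZnF1 and 38.4 to 49.2 in wild type cells. Most of this was Lck, a kinase gene, at 15.8 and 16.9 RPKM in ZnF4, 30.5 and 11.7 in ZnF1, and 46.7 and 36.3 in wild type cells (day 28, then day 21). Cd4 was at 7.2 and 8.5 RPKM in ZnF1 and at 0.4 or less elsewhere, and Cd5 was at 0.5 to 2.2 throughout. Ikzf1 RNA, over its whole transcript, was 165.9 and 186.0 RPKM in ZnF4 cells, 91.4 and 108.0 in ZnF1 cells, and 78.7 and 89.2 in wild type cells (day 28, then day 21). A level over the whole transcript does not check the loss of a single finger. The depth of the libraries is unknown, because the table holds no read numbers.

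Among the 10 genes, 5 differed between ZnF4 and wild type cells: Rag1 and Rag2 were higher, and Dntt, Lig4 and Xrcc6 were lower. Between ZnF1 and wild type cells 6 differed: Rag1, Rag2 and Dclre1c were higher, and Lig4, Xrcc5 and Xrcc6 were lower. A gene was called when its adjusted p in limma (Benjamini-Hochberg over the 11379 genes tested) was below 0.05, in a fit of log2(RPKM + 1) on genotype and day. All 10 genes passed the filter on low values, 1 RPKM or more in at least 2 of the 6 libraries. The background was large. Of all tested genes, 18.2% were called between ZnF4 and wild type (10.9% higher, 7.32% lower) and 38.1% between ZnF1 and wild type (22.9% higher, 15.2% lower). With quantile scaling the ZnF1 split turned round, to 2047 genes higher and 2913 lower where the unscaled values gave 2606 and 1730. The median log2 difference of the 10 genes was 0.11 in ZnF4 and 0.02 in ZnF1 cells, beside 0.02 and -0.02 over all tested genes. The calls fell in both directions. The counts rested on few libraries. Leaving out a library of a compared genotype lowered the calls over all tested genes as well, so such a drop is not particular to the 10 genes. Dropping the filter on low values did so too in ZnF4 against wild type, to 1137 of the 15231 genes then tested. In ZnF4 cells 1 gene was called when either ZnF4 library was left out, 1 when day 28 of wild type was left out and 0 when its day 21 was; without the filter on low values 2 were called. In ZnF1 cells 3 were called without day 21 of ZnF1 and 2 without either wild type library.

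**Figure D1:**
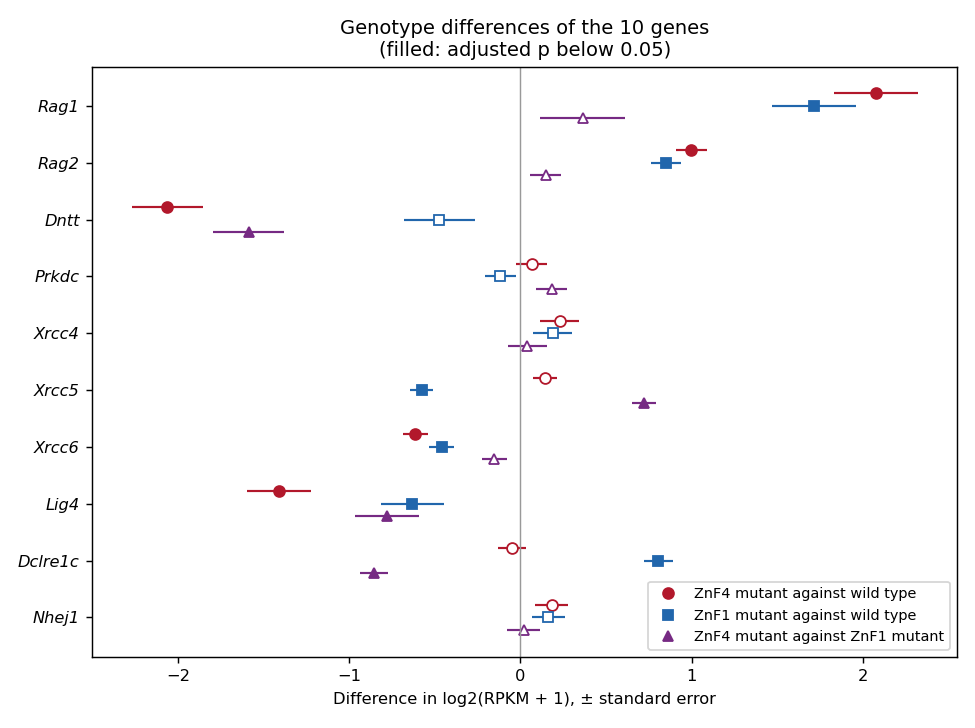
Log2 difference of each of the 10 genes on the log2(RPKM + 1) scale (x axis) in 3 comparisons, ZnF4 against wild type, ZnF1 against wild type and ZnF4 against ZnF1, with the standard error from limma as bars and filled symbols for called genes. Rag1 and Rag2 lie to the right of 0 in both mutants against wild type, at 2.08 and 0.998 (ZnF4) and 1.72 and 0.85 (ZnF1), while Dntt and Lig4 lie furthest to the left in ZnF4, at -2.06 and -1.41.

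Rag1, the catalytic subunit of the recombinase, was several-fold higher in both mutants. Its level was 44.3 and 49.6 RPKM in ZnF4 cells (day 28, then day 21, as for every pair below), 23.9 and 54.7 in ZnF1 cells, and 9.2 and 11.6 in wild type cells. Every mutant library stood above both wild type libraries, and the ZnF1 library of day 28 was the lowest of the mutants. The share of all tested genes whose libraries separate in such a way was not counted, here or for the genes below. The means were 46.95 ± 3.75 RPKM in ZnF4, 39.3 ± 21.8 in ZnF1 and 10.4 ± 1.70 in wild type cells (SD, n = 2 each), a ratio of 4.51 for ZnF4 and 3.78 for ZnF1. The log2 difference from wild type was 2.08 ± 0.25 (SE; adjusted p = 0.00596, limma) in ZnF4 and 1.72 ± 0.25 (adjusted p = 0.0056) in ZnF1. In bulk RNA, more cells expressing a gene and more RNA per cell cannot be told apart. Leaving out any 1 ZnF4 or wild type library ended the ZnF4 call (log2 difference 1.79 to 2.37), as did dropping the filter on low values (adjusted p = 0.0638). Leaving out day 28 or day 21 of wild type ended the ZnF1 call (log2 difference 1.89 and 1.54).

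Rag2, the partner subunit, moved the same way but less. It was at 15.0 and 20.6 RPKM in ZnF4 cells, 13.1 and 19.0 in ZnF1 cells, and 7.5 and 9.2 in wild type cells. The mutant and wild type libraries did not overlap, and the mutants overlapped each other. Its log2 difference from wild type was 0.998 ± 0.089 (adjusted p = 0.00268) in ZnF4 and 0.85 ± 0.09 (adjusted p = 0.0022) in ZnF1. The ZnF1 call held in all 17 alternative fits (adjusted p up to 0.0368), and the ZnF4 call ended when either ZnF4 library, or day 21 of wild type, was left out (up to 0.057). Because Rag1 moved further, the ratio of Rag1 to Rag2 within a library was 2.95 and 2.41 in ZnF4, 1.82 and 2.88 in ZnF1, and 1.23 and 1.26 in wild type cells. The ratio was closest to 1 in the wild type libraries, and every mutant library was above them.

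**Figure D2:**
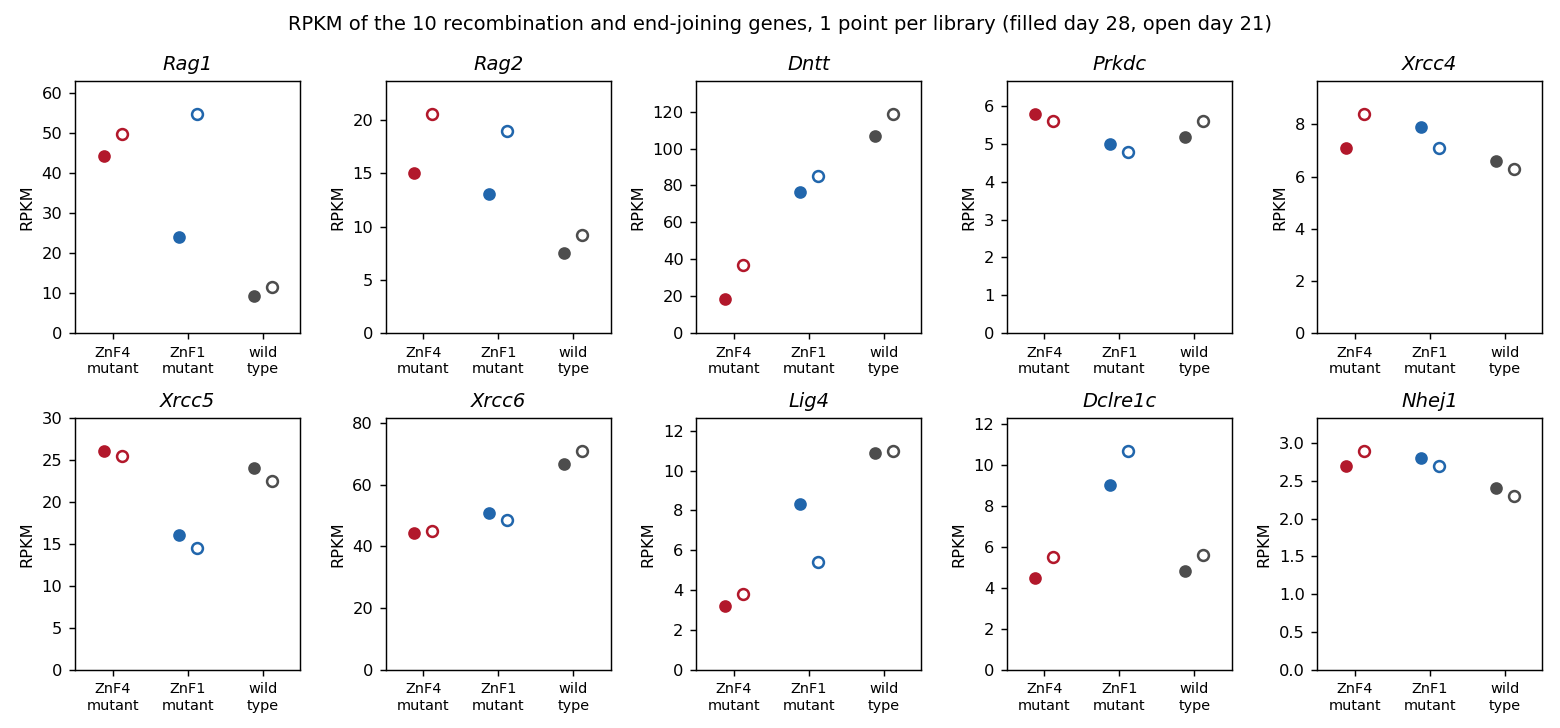
RPKM of the 10 genes, each on its own linear axis from 0, with ZnF4 left, ZnF1 in the middle and wild type right; each point is 1 library, filled for day 28 and open for day 21. Rag1 sits at 44.3 and 49.6 RPKM in ZnF4 and at 9.2 and 11.6 in wild type, Dntt at 18.6 and 36.7 in ZnF4 and at 106.7 and 118.8 in wild type, and Prkdc between 4.8 and 5.8 RPKM in all libraries.

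The promoter windows of the lymphoid-restricted members, Rag1, Rag2 and Dntt, are given here because Ikaros binds DNA. Each runs from 250 bases before to 50 after the RefSeq start (build GRCm38.p6, 5′ to 3′ on the gene's strand): Rag1 at chr2:101649483-101649782 (minus strand), Rag2 at chr2:101624462-101624761 (plus strand) and Dntt at chr19:41029025-41029324 (plus strand). Capitals mark matches, on either strand, to the Ikaros core GGGAA, the E-box CAGNTG bound by E2A proteins, and the Runx motif TGTGGT.
Rag1: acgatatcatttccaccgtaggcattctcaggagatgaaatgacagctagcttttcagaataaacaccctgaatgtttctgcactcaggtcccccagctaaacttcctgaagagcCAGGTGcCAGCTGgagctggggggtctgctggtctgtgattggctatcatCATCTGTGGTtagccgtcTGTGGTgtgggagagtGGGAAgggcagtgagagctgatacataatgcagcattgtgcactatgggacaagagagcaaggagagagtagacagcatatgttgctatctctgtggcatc
Rag2: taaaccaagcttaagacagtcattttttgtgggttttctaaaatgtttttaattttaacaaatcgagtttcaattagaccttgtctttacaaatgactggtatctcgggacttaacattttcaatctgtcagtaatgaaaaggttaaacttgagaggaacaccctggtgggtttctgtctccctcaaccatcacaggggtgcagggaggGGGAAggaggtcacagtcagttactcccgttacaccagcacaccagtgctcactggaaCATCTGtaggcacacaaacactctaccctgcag
Dntt: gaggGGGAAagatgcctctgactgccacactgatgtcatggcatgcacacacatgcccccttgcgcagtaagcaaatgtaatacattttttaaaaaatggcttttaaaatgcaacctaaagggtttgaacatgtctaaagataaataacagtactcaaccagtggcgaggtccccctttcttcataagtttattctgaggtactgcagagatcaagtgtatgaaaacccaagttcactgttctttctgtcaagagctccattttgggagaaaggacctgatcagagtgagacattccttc
The Rag1 window held 3 E-boxes (first base at -135, -128 and -85 from the start), 2 Runx motifs (-81 and -67) and 1 Ikaros core (-51); the E-box at -85 overlaps the Runx motif at -81. Rag2 had 1 Ikaros core at -41 and 1 E-box at 18, and Dntt had 1 Ikaros core at -246. These letters are common: of 32851 mouse promoter windows of this length, 62.7% held GGGAA, 51.4% held CAGNTG and 16.8% held TGTGGT. The FOXO motif GTAAACA and an EBF motif, present in 3.65% and 0.9% of all windows, were found in none of the member windows (9 of 10 genes had one; Prkdc did not). A match is a string of letters and says nothing about binding.

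The genes around Rag1 and Rag2 on chromosome 2 were compared as well. In RefSeq order the stretch reads Iftap, Rag2, Rag1, Traf6, Prr5l and Commd9, and Iftap is listed in the table as B230118H07Rik. This neighbour, also known as NWC, was at 8.3 and 8.2 RPKM in ZnF4 cells, 1.8 and 2.0 in ZnF1 cells, and 1.4 and 1.2 in wild type cells. The ZnF4 libraries were the highest, with a log2 difference of 2.01 ± 0.10 from wild type (adjusted p = 0.000844) and of 1.67 from ZnF1 (adjusted p = 0.000492). In ZnF1 cells it was 0.33 above wild type (adjusted p = 0.0532), with no overlap between the libraries. Of 16 alternative fits 4 called it (adjusted p down to 0.0382), and quantile scaling turned the value to -0.10. Commd9, a COMM-domain gene, was higher in ZnF4 too, at 18.8 and 18.8 RPKM against 11.9 and 11.5 in wild type cells (0.64, adjusted p = 0.00543), a call that ended when any 1 ZnF4 or wild type library was left out (adjusted p up to 0.0908). The B230118H07Rik calls in ZnF4 held in all 16 alternative fits that tested it. Traf6, a signalling ubiquitin ligase, was at 26.9 and 26.5 RPKM in ZnF4 and 20.4 and 20.9 in wild type cells and was not called (0.36, adjusted p = 0.0588). Prr5l stayed below 1 RPKM in every library and was not tested. Against wild type, 2 of 3 tested neighbours were called higher in ZnF4 cells, where 10.9% of all tested genes were, and 0 of 3 in ZnF1 cells. Against ZnF1, 3 of 3 were called higher in ZnF4 cells (22.3% of all tested genes), Traf6 included (0.33, adjusted p = 0.0375). The Traf6 call ended when any 1 library was left out (adjusted p up to 0.237), and with quantile, median or pro-B marker scaling. B230118H07Rik overlaps Rag2 on the opposite strand by 208 exon bases and Rag1 on the same strand by 80 over all annotated transcripts. The table's own B230118H07Rik and Rag2 transcripts share none.

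**Figure D3:**
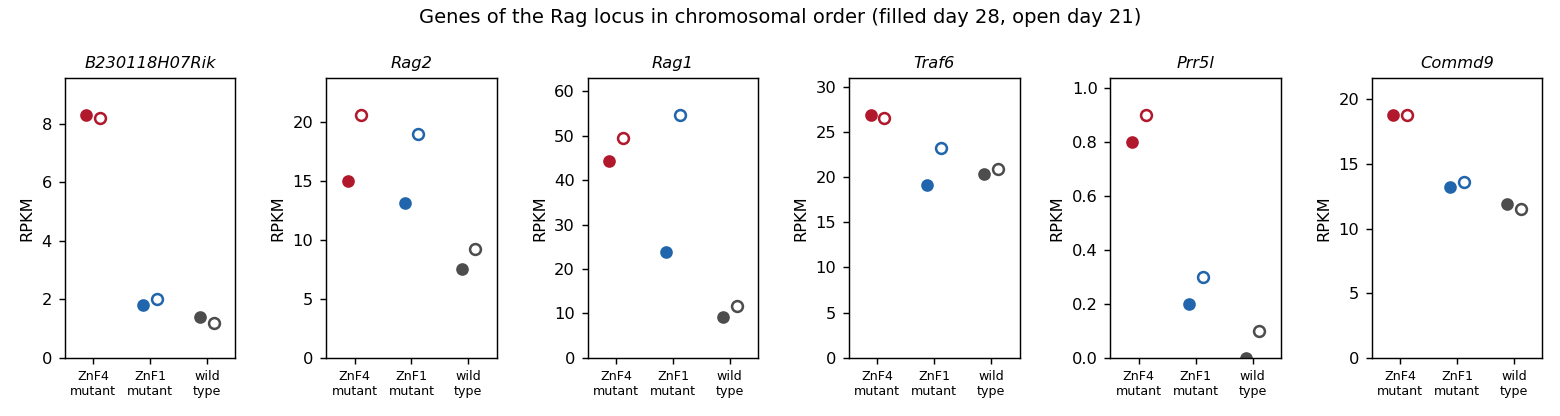
RPKM of Rag1, Rag2 and their neighbours in RefSeq order along chromosome 2, each on its own linear axis from 0; each point is 1 library, filled for day 28 and open for day 21. B230118H07Rik is at 8.2 to 8.3 RPKM in ZnF4 and at or below 2.0 in the other libraries, whereas Rag1 and Rag2 are higher in both mutants than in wild type.

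Dntt, terminal transferase, went the other way from Rag1 and separated the mutants from each other. It was at 18.6 and 36.7 RPKM in ZnF4 cells, 76.6 and 85.2 in ZnF1 cells, and 106.7 and 118.8 in wild type cells. No library of one genotype overlapped another, though the share of all tested genes for which this holds was not counted. Dntt was the most abundant of the 10 genes in every ZnF1 and wild type library, but the fourth (day 28) and the third (day 21) in ZnF4 cells. The log2 difference from wild type was -2.06 ± 0.21 (adjusted p = 0.00396) in ZnF4, a ratio of means of 0.245. It was -0.47 ± 0.21 (95% confidence interval -1.01 to 0.06, adjusted p = 0.132) in ZnF1 cells, which did not pass, although 4 of the alternative fits called it (adjusted p down to 0.015). The ZnF4 call did not survive leaving out either wild type library (up to 0.0709 for adjusted p) or dropping the filter (0.0521). Set against the recombinase, Dntt RNA was 0.42 and 0.74 times that of Rag1 in ZnF4, 3.21 and 1.56 times in ZnF1, and 11.6 and 10.2 times in wild type cells.

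Dntt has a long and a short isoform, and the table lists both. The short one has 510 codons, and the long one has 530 because of 1 extra coding exon, exon 11 of 12, with 60 bases or 20 codons. The junction in build GRCm38 (GENCODE) follows, with the extra exon in capitals and 12 bases of its neighbours on each side.
Dntt long isoform: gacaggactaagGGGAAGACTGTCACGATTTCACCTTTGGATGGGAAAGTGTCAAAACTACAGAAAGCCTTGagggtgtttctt
Dntt short isoform: gacaggactaagagggtgtttctt
The short isoform held nearly all of the summed level, 99.7% to 100% in every library. The long one was listed at 0.0 and 0.1 RPKM in ZnF4, 0.2 and 0.1 in ZnF1, and 0.3 and 0.3 in wild type cells, at or near the smallest value the rounding leaves, 0.1. In mice, the short form is the one that adds bases at junctions. The Dntt relative Polm, a polymerase that fills gaps at broken ends, fell with Dntt in ZnF4 cells: 1.1 and 1.2 RPKM in ZnF4, 3.5 and 3.2 in ZnF1, and 3.0 and 3.2 in wild type cells. Its log2 difference from wild type was -0.93 (adjusted p = 0.00471) in ZnF4, and 0.08 (not called) in ZnF1. Leaving out any 1 ZnF4 or wild type library ended the ZnF4 call (adjusted p up to 0.0701), while Polm was lower in ZnF4 than in ZnF1 cells in all 16 alternative fits that tested it (-1.02, adjusted p = 0.00129). The relative Poll was called in neither mutant (-0.14 and -0.20), and the repair polymerase Polb was called higher in ZnF1 (0.46, adjusted p = 0.0137) and not in ZnF4 (0.22); the ZnF1 call ended when any 1 ZnF1 or wild type library was left out (adjusted p up to 0.138).

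The Ku subunits were both lower in ZnF1 cells, and only Xrcc6 was lower in ZnF4 cells. Xrcc6 was at 44.2 and 44.9 RPKM in ZnF4 cells, 50.9 and 48.4 in ZnF1 cells, and 66.5 and 71.0 in wild type cells, so it was lower in both mutants. The log2 difference was -0.61 ± 0.07 (adjusted p = 0.00594) in ZnF4 and -0.46 ± 0.07 (adjusted p = 0.00745) in ZnF1. Xrcc5 was at 26.1 and 25.5 RPKM in ZnF4, 16.0 and 14.5 in ZnF1, and 24.0 and 22.5 in wild type cells. It was lower in ZnF1 alone (-0.58 ± 0.07, adjusted p = 0.0032), and differed in ZnF4 by 0.14 (95% confidence interval -0.03 to 0.32). Per length, Xrcc6 RNA was 1.69 and 1.76 times that of Xrcc5 in ZnF4, 3.18 and 3.34 times in ZnF1, and 2.77 and 3.16 times in wild type cells. Leaving out any 1 ZnF4 or wild type library ended the Xrcc6 call in ZnF4 (adjusted p up to 0.102). Leaving out day 21 of ZnF1, or either day of wild type, ended the ZnF1 calls of Xrcc6 (up to 0.104) and Xrcc5 (up to 0.06), and without day 28 of ZnF1 the Xrcc6 value stood at the threshold (adjusted p = 0.05). Over all annotated transcripts, exons of Xrcc6 share 344 bases with Desi1 on the opposite strand, listed as Pppde2. Whether the Xrcc6 transcript measured here holds any of them was not checked, and no strand-marking step is named. Pppde2 was at 27.2 and 24.7 RPKM in ZnF4, 38.4 and 31.6 in ZnF1, and 43.7 and 47.2 in wild type cells.

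Prkdc, the kinase that the Ku proteins recruit, lay between 4.8 and 5.8 RPKM in all 6 libraries and was called in neither mutant. Its log2 difference from wild type was 0.07 (95% confidence interval -0.16 to 0.30) in ZnF4 and -0.12 (-0.35 to 0.11) in ZnF1.

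Dclre1c, the nuclease Artemis that Prkdc activates, was higher in ZnF1 cells than in either other genotype. Its main transcript row was at 4.5 and 5.5 RPKM in ZnF4 cells, 9.0 and 10.7 in ZnF1 cells, and 4.8 and 5.6 in wild type cells. Both ZnF1 libraries stood above the other 4, and the ZnF4 and wild type libraries overlapped. The log2 difference was 0.81 ± 0.08 (adjusted p = 0.00207) between ZnF1 and wild type, -0.86 ± 0.08 (adjusted p = 0.00121) between ZnF4 and ZnF1, and -0.05 (95% confidence interval -0.26 to 0.16) between ZnF4 and wild type. The first 2 were called in all 17 alternative fits. The other Dclre1c transcripts were also highest in ZnF1: NM_001110214 was at 3.9 and 3.9 RPKM in ZnF4, 7.1 and 7.5 in ZnF1, and 4.6 and 4.4 in wild type cells, and NM_175683 at 0.8 and 1.0 RPKM in ZnF4, 1.6 and 1.8 in ZnF1, and 0.8 and 0.9 in wild type cells. How the authors split reads among these rows is unknown. The macrophage markers were also highest in ZnF1 cells. Against wild type 10 of 10 were called higher (median log2 difference 2.23), beside 22.9% of all tested genes. In ZnF4 against ZnF1 cells 10 of 10 were called lower, beside 23.2%. Between ZnF4 and wild type cells 7 of 10 were called lower (median -0.80), beside 7.32%, where Dclre1c was not called. The part of the macrophage markers in the Dclre1c difference was not tested. Over all annotated transcripts, Dclre1c shares 357 exon bases with Suv39h2 on the opposite strand, which was not checked for the transcripts measured here. Suv39h2 was at 5.5 and 5.9 RPKM in ZnF4, 4.3 and 4.2 in ZnF1, and 5.5 and 5.3 in wild type cells.

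At the ligation step, Lig4 was lower in both mutants while its partners were not called. Lig4 was at 3.2 and 3.8 RPKM in ZnF4 cells, 8.3 and 5.4 in ZnF1 cells, and 10.9 and 11.0 in wild type cells. No genotype overlapped another (the share of all tested genes was not counted), and the wild type libraries were the closest pair. The log2 difference was -1.41 ± 0.19 (adjusted p = 0.00819) in ZnF4, a ratio of means of 0.32, and -0.63 ± 0.19 (adjusted p = 0.048) in ZnF1. The ZnF4 call was lost without any 1 of the ZnF4 or wild type libraries (adjusted p up to 0.123) and without the filter (0.0686). The ZnF1 call sat at the threshold and was lost in 11 of 17 alternative fits (up to 0.287). Its size fell to -0.31 without the ZnF1 library of day 21 and reached -0.95 without that of day 28. Xrcc4, the scaffold that holds Lig4, was at 7.1 and 8.4 RPKM in ZnF4, 7.9 and 7.1 in ZnF1, and 6.6 and 6.3 in wild type cells (0.23 and 0.19 above wild type, neither called). Over all annotated transcripts, Xrcc4 shares 112 exon bases with Tmem167 on the opposite strand, which was not checked for the transcript measured here. The ratio of Lig4 to Xrcc4 was 0.451 and 0.452 in ZnF4, 1.05 and 0.761 in ZnF1, and 1.65 and 1.75 in wild type cells. Nhej1 was the lowest of the 10 in every library, at 2.7 and 2.9 RPKM in ZnF4, 2.8 and 2.7 in ZnF1, and 2.4 and 2.3 in wild type cells (0.18 and 0.16, neither called).

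**Figure D4:**
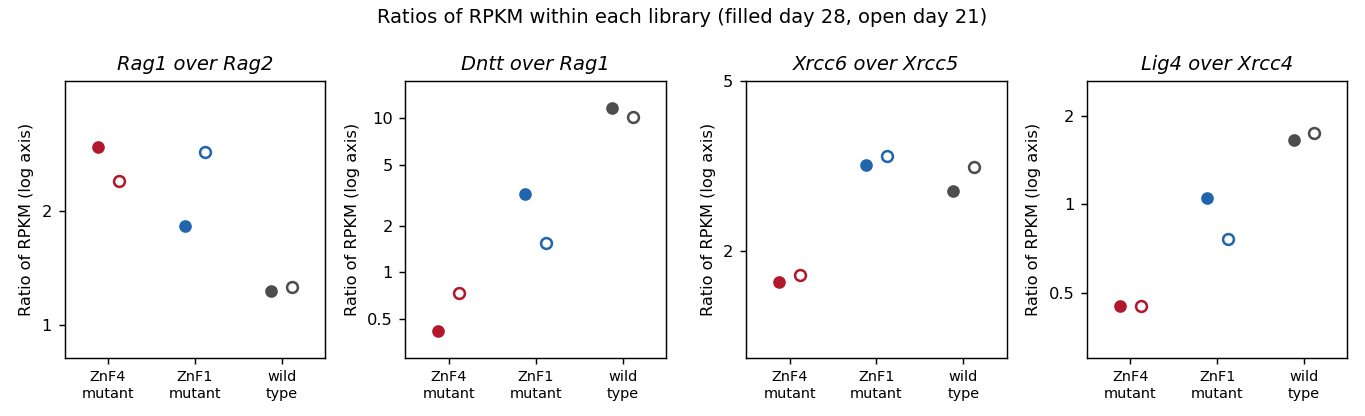
Ratio of 2 RPKM values within each library (log axis) for Rag1 to Rag2, Dntt to Rag1, Xrcc6 to Xrcc5 and Lig4 to Xrcc4, by genotype; each point is 1 library, filled for day 28 and open for day 21. Dntt to Rag1 is 0.42 and 0.74 in ZnF4 and 11.6 and 10.2 in wild type, and Lig4 to Xrcc4 is 0.451 and 0.452 in ZnF4 and 1.65 and 1.75 in wild type.

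Between the mutants themselves, 4 of the 10 genes were called, beside 45.5% of all tested genes (22.3% higher, 23.2% lower; with quantile scaling 3431 genes were higher and 2359 lower). Xrcc5 was higher in ZnF4 than in ZnF1 cells (0.72 ± 0.07, adjusted p = 0.0012), and Dntt (-1.59 ± 0.21, adjusted p = 0.00315), Dclre1c (above) and Lig4 (-0.78 ± 0.19, adjusted p = 0.0218) were lower. The calls of Dntt, Xrcc5 and Dclre1c held in every alternative fit that gave them a value, and that of Lig4 ended when any library but day 21 of ZnF1 was left out (adjusted p up to 0.154). Rag1 was not called (0.36, 95% confidence interval -0.26 to 0.99, adjusted p = 0.278), nor was Rag2 (0.15, -0.08 to 0.37). The Rag1 value rested on the ZnF1 days. It was -0.10 without the ZnF1 library of day 28, and 0.83 (adjusted p = 0.0204) without that of day 21. Because both mutants were set against the same wild type libraries, their differences from wild type are not independent of each other. The macrophage and stromal markers were lower in ZnF4 than in ZnF1 cells, and their part in the 4 calls was not tested.

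Between day 28 and day 21, limma called 0 of the 10 genes and 0 of 11379 in all (0%). With scaling to pro-B markers it called 130 of 11379, 126 of them higher at day 28, and none of the 10. Without that scaling, an unadjusted p below 0.05 was found for 3 of the 10 and 1631 of all. Those were Rag1 (-0.54 ± 0.20, adjusted p = 0.332), Rag2 (-0.40 ± 0.07, adjusted p = 0.183) and Dclre1c (-0.22 ± 0.07, adjusted p = 0.273). Each was lower at day 28 in all 3 genotypes, which adds no support, because they were picked by the day test on these same libraries. Dntt, not among them, was also lower at day 28 in each, at ratios of 0.507 in ZnF4, 0.899 in ZnF1 and 0.898 in wild type. For Rag2 the ratio of day 28 to day 21 was 0.728 in ZnF4, 0.689 in ZnF1 and 0.815 in wild type. The largest day ratios were those of Rag1 in ZnF1 (0.437), Dntt in ZnF4 (0.507) and Lig4 in ZnF1 (1.54). With 1 library for each genotype and day, whether the day effect differs between genotypes could not be tested.

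Across the wider pathway, 73 other genes in 7 lists were tested. Between ZnF4 and wild type cells 10 were called higher and 3 lower, a median log2 difference of 0.08. Between ZnF1 and wild type 5 were higher and 27 lower (median -0.20), and between ZnF4 and ZnF1 35 were higher and 7 lower (median 0.23). The medians over all tested genes were 0.02, -0.02 and 0.03. Among genes with a mean of at least 4 RPKM they were 0.02, -0.07 and 0.08. The shares called were 17.8% for ZnF4 against wild type, 43.8% for ZnF1 against wild type and 57.5% for ZnF4 against ZnF1, beside 18.2%, 38.1% and 45.5% of all tested genes. The counts against wild type depended on single libraries. Those over all tested genes also fell when a library of a compared genotype was left out, so the drop is not particular to the pathway. In ZnF4 cells 2 genes were called without the ZnF4 library of day 28 or either wild type library, 4 without the ZnF4 library of day 21 and 7 without either ZnF1 library. In ZnF1 cells 4 were called without the ZnF1 library of day 21 or either wild type library and 7 without that of day 28. Between the mutants the count was 22 without the ZnF1 library of day 21 and 23 without that of day 28. The ZnF4 count was 8 without day as a replicate block (1687 of all 11379 tested genes), 8 with the longest transcript row (1830 of 10571) and 6 without the filter (1137 of 15231). The ZnF1 count was 21 without the filter (4397 of all 15231), and with median scaling it was 10 higher and 14 lower (2994 and 1071 of all 11379).

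The list counts below stand beside these shares of all tested genes. Against wild type, 10.9% were called higher and 7.32% lower in ZnF4, and 22.9% higher and 15.2% lower in ZnF1 cells. Between ZnF4 and ZnF1 cells 22.3% were called higher and 23.2% lower. Of the 6 genes for cofactors and turnover of the recombinase, 5 were called lower in ZnF1 cells and 0 were called in ZnF4 cells. They include Ccna2 (-0.60, adjusted p = 0.00454), the cyclin A2 gene, and Skp2 (-0.46, adjusted p = 0.00926), whose ubiquitin ligase marks Rag2 for destruction as cells enter S phase. Hmgb2, a DNA-bending cofactor of the recombinase, was lower as well (-0.54, adjusted p = 0.0383), as was Vprbp (-0.36), the Rag1-binding protein. Against ZnF1 cells, ZnF4 cells had 5 of 6 higher, among them Ccna2 (0.82) and Skp2 (0.71). The same comparison called 8 of 12 genes of break sensing and signalling higher, including Mre11a (0.60), Rad50 (0.57), H2afx (0.72) and Rif1 (0.47), against 5 of 12 lower in ZnF1 than in wild type cells and 0 of 12 called in ZnF4. For alternative end joining, 5 of 6 were lower in ZnF1 than in wild type, with Lig1 (-0.53), Polq (-0.35), Parp1 (-0.39) and Rbbp8 (-0.26). In ZnF4 only Lig1 was called, and it was higher (0.31). That call held in 5 of 16 alternative fits, and not without day as a block or without the filter. Of the 9 homologous recombination genes, 4 were lower in ZnF1, among them Bard1 (-0.51), Brca1 (-0.30) and Brca2 (-0.32), and 3 were higher in ZnF4, among them Brca1 (0.39) and Brca2 (0.38). The Brca1 and Brca2 calls in ZnF4 each held in 8 of 17 alternative fits, and not without day as a block or without the filter. Of 10 end-processing genes, Polm, Poll and Polb included, 1 was higher and 1 lower in ZnF4 cells, and 1 was higher and 2 were lower in ZnF1 cells. The lower ones in ZnF1 were Tdp1 (-0.45) and Tdp2 (-0.34), which remove proteins stuck to DNA ends. Of the genes named from the 7 lists, 20 of 22 ZnF1 calls and 6 of 8 ZnF4 calls against wild type ended when some 1 library was left out, and so did 10 of 27 calls between the mutants. The differences of Ccna2, Skp2, Mre11a, H2afx, Lig1, Polq, Bard1, Brca1 and Brca2 between ZnF4 and ZnF1 cells were called in every alternative fit that tested them. In ZnF1 cells the macrophage and stromal markers were higher, and their part in these lower values was not tested.

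Of 27 transcription factors known to act on Rag or Dntt, 3 were higher and 2 lower in ZnF4 cells, and 4 were higher and 6 lower in ZnF1 cells. These shares, 18.5% and 37.0%, lay next to the 18.2% and 38.1% of all tested genes. In ZnF4 the higher ones were Ikzf1 itself (1.06, adjusted p = 0.00129), Tcf4 (0.76, adjusted p = 0.00601), a relative of E2A, and Bcl11a (0.32). Id2, an inhibitor of E proteins, was at 4.3 and 2.9 RPKM in ZnF4 cells, 23.6 and 15.2 in ZnF1 cells, and 5.1 and 5.4 in wild type cells (1.68 in ZnF1 against wild type, adjusted p = 0.00211). Sfpi1, which encodes PU.1, a factor of myeloid and B cells, was at 46.5 and 40.2 RPKM in ZnF4, 83.2 and 84.4 in ZnF1, and 48.4 and 44.9 in wild type cells (0.83 in ZnF1, adjusted p = 0.00179). The calls of Ikzf1 in ZnF4 and of Id2 and Sfpi1 in ZnF1 held in all 17 alternative fits, and that of Tcf4 ended when day 28 of ZnF4 or either wild type one was left out (adjusted p up to 0.104), and with the longest transcript row. Macrophages express both Id2 and Sfpi1, and the macrophage markers were likewise higher in ZnF1 than in wild type cells. In ZnF4 against wild type 7 of 10 of these markers were called lower, and neither Id2 nor Sfpi1 was called. The part of the macrophage markers was not tested. Gfi1, of the same list, was above wild type by 0.46 in ZnF4 (adjusted p = 0.528) and 1.25 in ZnF1 (adjusted p = 0.0718), neither called. Gfi1b, a repressor of the Rag genes in mice, was picked out after its values were seen. Its level was 7.2 and 2.7 RPKM in ZnF4, 2.7 and 0.9 in ZnF1, and 7.1 and 7.3 in wild type cells. Gfi1b was not called in ZnF4 against wild type (-0.57, adjusted p = 0.25). It was lower in ZnF1 than in wild type cells (-1.63 ± 0.29, adjusted p = 0.0114), a call lost when either ZnF1 library was left out (adjusted p up to 0.121) or without the filter.

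**Figure D5:**
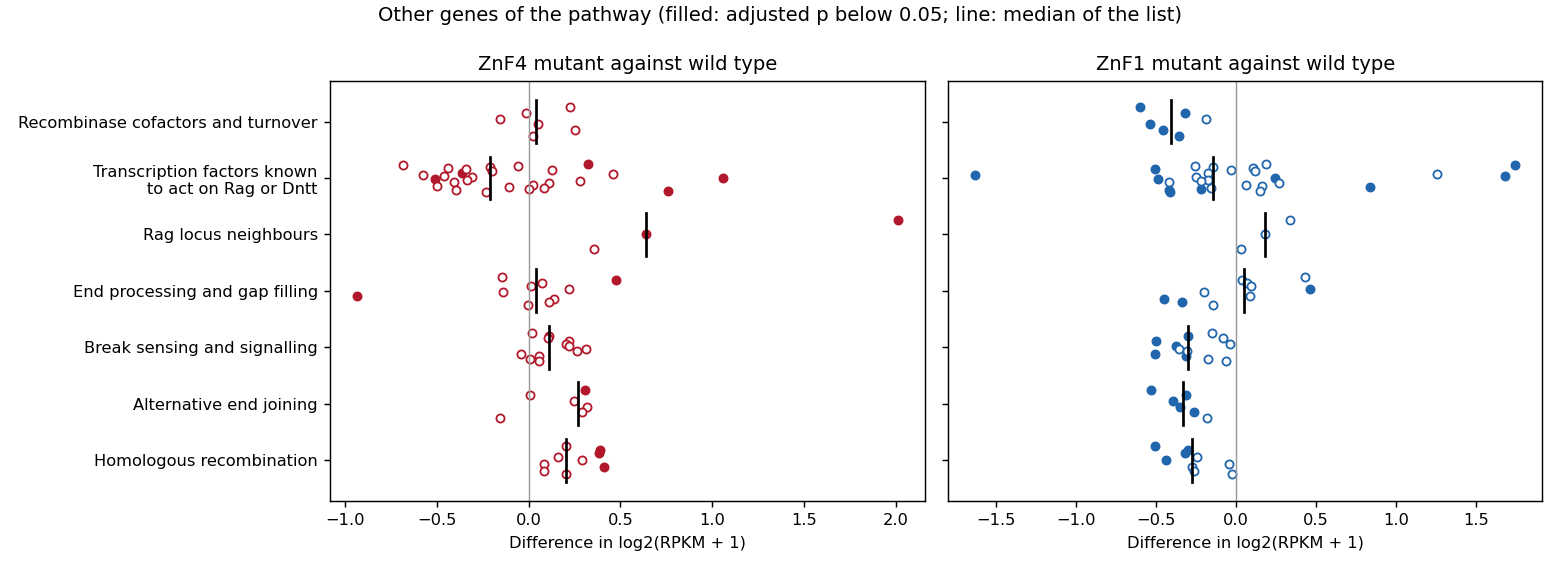
Log2 difference (x axis, log2(RPKM + 1) scale) of each tested gene of the 7 lists, in ZnF4 against wild type (left) and ZnF1 against wild type (right); filled points were called and a black line marks each list's median. In the homologous recombination list 3 of 9 genes are called higher in ZnF4 (10.9% of all tested genes) and 4 of 9 lower in ZnF1 (15.2%).

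The genes whose profile over the 6 libraries was most like that of Rag1, by Pearson's coefficient of log2(RPKM + 1) among 8603 genes with a mean of at least 4 RPKM, were Glce (0.979), Ptgs1 (0.978), Rag2 (0.974), Myadm (0.973) and Emb (0.971). For Rag2 they were Slc4a7 (0.998), Nxt2 (0.986), Myst4 (0.986), Ralb (0.981) and Emb (0.980). For Dntt, Traf3ip3 (0.998), Grap (0.988), Sash3 (0.985) and Synrg (0.983) were named, with 1 further gene of no described function. Among the 10 genes, Rag1 and Rag2 had a coefficient of 0.974, Dntt and Lig4 0.905, Rag1 and Lig4 -0.903, and Rag1 and Dntt -0.667. These are descriptions over 6 libraries that share 3 genotypes and 2 days, with so many genes searched that high values are found readily.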

How the data were processed

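Poly(A) RNA was sequenced in 6 libraries, 1 per Ikaros genotype and day. Per the labels' protocols, fragmented double-stranded cDNA was sequenced on Illumina, and no strand-marking step is named. Per the submitters' processing notes, TopHat, bedtools and the mouse build mm9 were used, without versions. The authors deposited RPKM values rounded to 1 decimal for 26531 transcript rows. The 1 row with no gene name was dropped. Depth is unknown, so no counting interval is given, and 2 libraries per genotype limit precision.

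Where a symbol had several rows, that of highest mean was used. Values were tested as log2(RPKM + 1) with limma 3.58.1 in R 4.3.3, with genotype and day as terms, all 6 libraries in 1 fit and a mean-variance trend. Fold changes on this scale understate those of low genes. Genes at 1 RPKM or more in 2 or more libraries were tested (11379), with 2 residual and 3.22 prior degrees of freedom. Adjusted p-values are Benjamini-Hochberg over all of them. The day of the library served as the replicate number. The day changes correlated at 0.226 (ZnF4 and ZnF1), 0.249 (ZnF4 and wild type) and 0.433 (ZnF1 and wild type) across genes. With each above 0.1, the days were taken to pair the libraries, and day is a block in the fit.

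Members and lists were chosen with earlier results of these data known. Named beside the members were up to 4 genes per list with the smallest p in a genotype comparison, the Rag neighbours, and Polb, Poll and Polm. Of 75 list entries 74 matched. Mri1 was dropped, since the table uses that symbol for another gene. Motifs and promoter windows come from RefSeq GRCm38.p6 and are not mixed with mm9. Alternatives covered the block, the pseudocount, the filter, scaling, the row chosen, the trend and each library left out.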

Additional observations from a re-analysis of the deposited data

Results flagged for a closer look

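For 4 of the genes the effects of the 2 mutants differed from each other, by the test of ZnF4 against ZnF1 cells in limma, beside 45.5% of all tested genes called in that comparison. Dntt was lower in ZnF4 than in ZnF1 cells by a log2 difference of -1.589 (adjusted p = 0.00315), and Dclre1c by -0.8552 (adjusted p = 0.00121). Lig4 was lower by -0.7809 (adjusted p = 0.0218), and Xrcc5 was higher by 0.7232 (adjusted p = 0.0012). The Lig4 call was lost in 7 of 17 alternative fits. In all 4, the ZnF4 and ZnF1 libraries did not overlap. That adds no support, because the 4 were picked by the test on these same libraries. The share of all tested genes without such overlap was not counted. In ZnF4 against ZnF1 cells 10 of 10 macrophage and 7 of 7 stromal markers were called lower, beside 23.2% of all tested genes. The part of these markers in the 4 differences was not tested.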

How the results depend on the processing

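Of the alternatives, these changed a count by over 1.5 times. For ZnF4 against wild type, 13 other pathway genes were called, and 8 without the replicate block (day), 6 without the filter, 8 with the longest transcript row and 7 with only the 4 libraries compared (1 residual degree of freedom). For the 10 members, the 5 calls became 2 without the filter (1137 of the 15231 genes then tested). For ZnF1 against wild type, the 32 pathway calls became 21 without the filter. For ZnF4 against ZnF1, the 4 member calls became 7 with quantile scaling. Without the replicate block, member counts stayed at 5, 6 and 4. Leaving out a library of a compared genotype lowered the calls over all tested genes too. Leaving out 1 library at a time leaves a genotype with a lone library, which is assumed to vary like the others. It gave 0 to 5 member calls for ZnF4 against wild type, 2 to 6 for ZnF1 against wild type, 3 to 5 for ZnF4 against ZnF1 and 0 to 0 for the days. Pathway calls were 2 to 7 for ZnF4 against wild type, 4 to 33 for ZnF1 against wild type, 22 to 30 for ZnF4 against ZnF1 and 0 to 0 for the days. Quantile scaling shifted the median of all genes to -0.12 for ZnF1 against wild type, with 2047 genes higher and 2913 lower where the unscaled fit had 2606 and 1730, and to 0.116 for ZnF4 against ZnF1, with 3431 and 2359 where it had 2540 and 2637.

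Values that changed sign were all of genes not called. Quantile scaling gave Nhej1 -0.2241, B230118H07Rik -0.1032 and Polm -0.2781 in ZnF1 against wild type, and pro-B marker scaling gave Traf6 -0.01958. The longest row gave Dclre1c 0.037 in ZnF4 against wild type. Median scaling gave Xrcc4 -0.04779, Nhej1 -0.05396 and Poll -0.02225 in ZnF4 against ZnF1. For the days, quantile scaling gave Prkdc -0.03611 and Nhej1 -0.02418, median scaling gave -0.04125 and -0.03425, and pro-B marker scaling gave Xrcc4 0.04827 and Xrcc6 0.04707. With single libraries left out, ZnF4 against wild type ranged over -0.04259 to 0.09203 for Vprbp, -0.1416 to 0.05865 for Rif1, -0.1917 to 0.2987 for Hmgb2 and -0.00146 to 0.1347 for Prkdc, and ZnF1 against wild type over -0.104 to 0.1576 for Traf6. For ZnF4 against ZnF1 it ranged over -0.1164 to 0.1953 for Xrcc4, -0.03962 to 0.0771 for Nhej1 and -0.1022 to 0.8271 for Rag1. For the days it ranged over -0.02356 to 0.04599 for Prkdc, -0.07832 to 0.09699 for Xrcc4, -0.1024 to 0.2635 for Lig4, -0.01874 to 0.04077 for Nhej1 and -0.05764 to 0.02453 for Xrcc6. The cause of these changes was not tested. Depth is unknown, and values near 0.1 RPKM are limited by rounding.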
